A study of Mus musculus with 9 samples.

Results

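Trh, Prtg, Dgkk, Fndc3c1, Gabrb2 and Pkd1l1 are 6 of the 22180 genes measured in sorted mouse embryoid body cells. They were chosen because their signals on these arrays were high at day 4 or day 7 of differentiation and low at day 21. Their changes between the days chose them, so these changes are described here with standard errors and intervals and without a test. All 6 were found, each with 1 probe set that carries no other gene symbol in the platform annotation. Mouse embryonic stem cells carried a transgene in which the promoter of Afp, the alpha-fetoprotein gene, drives green fluorescent protein, and they were grown in serum as embryoid bodies that started from 300 cells each and spread on gelatin. Reporter-positive cells were collected by flow cytometry at day 4, day 7 and day 21, with 3 arrays per day, and all 9 arrays carry this same transgene and sort. No sample without the reporter, unsorted or undifferentiated, was analysed here, and nothing in the labels says that the arrays of a day came from separate cultures, so intervals and p-values measure the spread between these arrays, which may be technical.

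The 6 genes encode proteins of unrelated roles. Trh encodes the precursor of thyrotropin-releasing hormone, which proteases cut into several copies of a small peptide hormone. Prtg encodes protogenin, a cell surface protein of the immunoglobulin superfamily related to neogenin and DCC and known from the early embryo. Dgkk encodes diacylglycerol kinase kappa, an enzyme that turns the lipid messenger diacylglycerol into phosphatidic acid. Fndc3c1 encodes a protein with fibronectin type III domains. Gabrb2 encodes the beta-2 subunit of the GABA-A receptor, a chloride channel opened by the neurotransmitter GABA. Pkd1l1 encodes a polycystin family protein that works with polycystin-2 in cilia of the embryonic node, where left and right are set.

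The promoters of these genes fall apart along one feature that the choice of genes did not use, the number of CG dinucleotides, and 4 of them are shown for that reason. The windows are those of RefSeq on GRCm38.p6, 250 bases before to 50 bases after each annotated start, and all 6 genes matched. Only the 250 bases before the start are printed, 5′ to 3′ on the strand of the gene, with CG dinucleotides in capitals. Prtg lies on the plus strand (chr9:72807024-72807273) and Trh on the minus strand (chr6:92244651-92244900), while the window of Gabrb2 with the lowest coordinates of its 3 is on the plus strand (chr11:42420190-42420439) and that of Pkd1l1, whose start rests on a predicted transcript, on the minus strand (chr11:8974710-8974959).
Prtg: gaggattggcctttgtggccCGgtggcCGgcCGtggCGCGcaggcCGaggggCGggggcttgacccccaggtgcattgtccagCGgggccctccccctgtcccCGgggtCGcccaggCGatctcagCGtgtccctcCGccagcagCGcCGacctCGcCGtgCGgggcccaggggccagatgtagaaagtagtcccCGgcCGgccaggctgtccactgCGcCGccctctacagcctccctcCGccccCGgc
Trh: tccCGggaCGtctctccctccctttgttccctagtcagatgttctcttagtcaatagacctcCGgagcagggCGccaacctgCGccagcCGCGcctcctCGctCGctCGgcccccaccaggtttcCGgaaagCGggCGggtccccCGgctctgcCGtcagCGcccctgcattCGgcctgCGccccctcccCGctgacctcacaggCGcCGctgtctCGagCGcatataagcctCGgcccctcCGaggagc
Gabrb2: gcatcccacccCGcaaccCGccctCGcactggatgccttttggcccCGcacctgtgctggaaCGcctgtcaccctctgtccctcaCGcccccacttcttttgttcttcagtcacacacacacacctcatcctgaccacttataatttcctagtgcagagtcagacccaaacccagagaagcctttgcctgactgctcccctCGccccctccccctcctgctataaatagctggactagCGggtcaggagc
Pkd1l1: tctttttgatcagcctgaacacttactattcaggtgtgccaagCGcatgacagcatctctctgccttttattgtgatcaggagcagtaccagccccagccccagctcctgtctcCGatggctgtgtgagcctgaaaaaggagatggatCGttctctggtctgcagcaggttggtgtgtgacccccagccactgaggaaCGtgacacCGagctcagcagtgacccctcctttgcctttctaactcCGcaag

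Counted over the whole 300 bases, the window of Prtg held 35 CG dinucleotides, that of Trh 28, that of Dgkk 26 and that of Fndc3c1 17. The 3 windows of Gabrb2 held 11, 9 and 9, and that of Pkd1l1 held 6. The median over all 32851 windows of the table was 7, with quartiles at 3 and 20. The count of Dgkk comes largely from a tandem repeat, described below, since each copy of its unit holds CG dinucleotides, and so differs in kind from the others. The 4 genes with the higher counts, Dgkk among them by its repeat, are those whose signal fell mainly after day 7. The 2 with the lower counts are those whose signal fell before day 7, as described below. With 6 genes chosen for their falls, this is a description of these windows only.

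**Figure D1:**
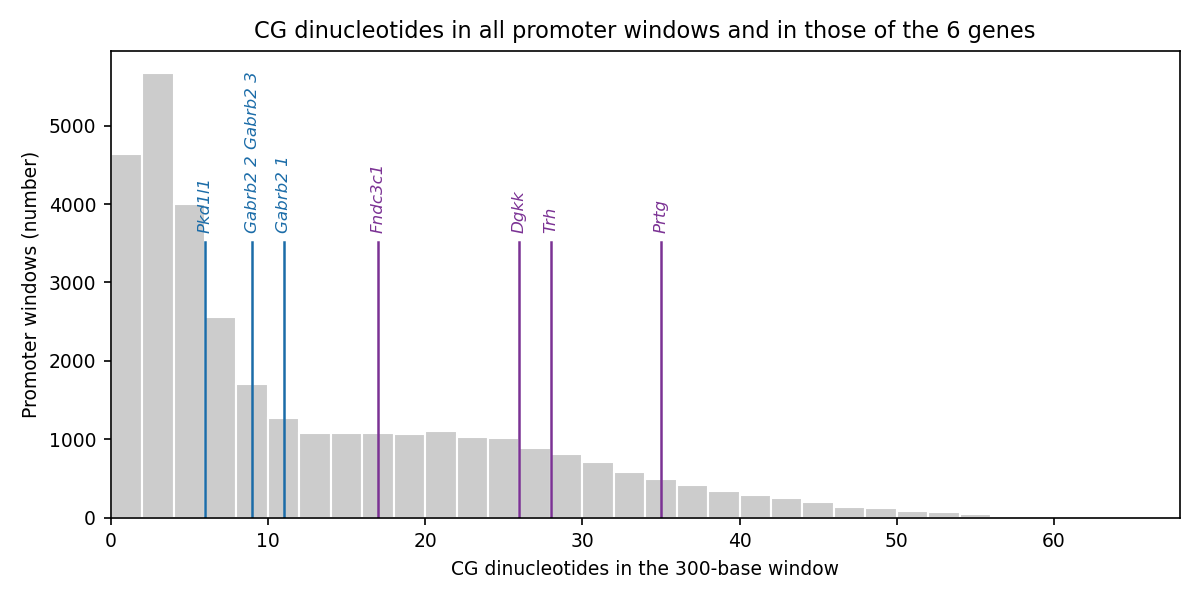
Number of CG dinucleotides in each 300-base RefSeq promoter window. Grey bars count all 32851 windows in bins of 2, purple lines mark the windows of the 4 genes that fell mainly after day 7, and blue lines mark those of Gabrb2 (3 windows, numbered) and Pkd1l1. The purple lines lie at 17 to 35 and the blue lines at 6 to 11. The count of Dgkk, at 26, comes largely from a tandem repeat.

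Exact matches of 6 short motifs were looked for on both strands of these windows. TATAAA, the core of the TATA box, was found in the Gabrb2 window printed above, with its first base 30 bases before the start, and 13.6% of all windows held it. GGGCGG, the GC box, was in the windows of Trh, Prtg and Fndc3c1 and in the same Gabrb2 window, against 35.7% of all windows. Prtg held 3 copies of it and Fndc3c1 held 4, of which 3 overlap by 1 base. CCAAT was in the windows of Prtg and Fndc3c1 and in the middle window of Gabrb2 (37.4% of all windows). ATGCAAAT, AGATAA and CACGTG were in none of the members' windows, against 1.74%, 11.2% and 7.15% of all windows. The letters alone show no binding.

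The window of Dgkk stands apart from the others in another way, and it is shown because its annotated start lies in a tandem repeat. A unit of 36 bases occurred in 6 exact copies in the 300 bases, 5 of them before the start. At a shift of 36 bases, 92.4% of the bases of the window matched, and only this 1 window of the 32851 reached that share at that shift. Whether transcription in these cells begins at this annotated start was not tested, so the window may not be the promoter used. The 250 bases before the start, on the plus strand of GRCm38.p6 (chrX:6779056-6779305), follow with the 5 exact copies in capitals; the next copy begins in this stretch and ends after the start.
Dgkk: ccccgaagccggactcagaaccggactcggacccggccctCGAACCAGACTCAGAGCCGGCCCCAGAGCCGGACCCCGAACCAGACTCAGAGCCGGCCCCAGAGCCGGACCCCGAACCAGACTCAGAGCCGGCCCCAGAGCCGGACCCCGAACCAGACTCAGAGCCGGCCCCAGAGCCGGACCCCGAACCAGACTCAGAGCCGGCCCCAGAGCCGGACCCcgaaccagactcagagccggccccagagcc

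Signals are deposited log2 values, so a difference of 1 is a doubling. As a reference for what a probe set reads without a transcript, the 95th percentile of 1105 olfactory receptor genes, silent in most cells, was taken on each array. A gene is called above background on a day when its mean exceeds the highest such percentile of that day's arrays, which was 6.11 at day 4, 6.19 at day 7 and 6.18 at day 21. By this measure 52.8%, 51.6% and 53.4% of genes were above background. Afp, whose promoter drives the sorted reporter, was below background at day 4 with a log2 signal of 5.72 ± 0.18 (mean ± SD, n = 3 arrays), and rose to 10.60 ± 0.07 at day 7 and 13.07 ± 0.11 at day 21. The day 4 arrays therefore do not show the transcript by which their cells are labelled as sorted. Of 10 visceral endoderm markers, Afp, Ttr and Cubn were below background at day 4 and 0 of 10 were at day 7 and day 21. Arrays of the same day correlated at 0.984 to 0.991 across genes, which are not independent replicates, and no pair was identical.

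Trh was high at days 4 and 7 and at background at day 21. Its log2 signal was 10.54, 10.61 and 10.80 on the 3 arrays of day 4, and 10.07, 9.93 and 10.05 on those of day 7. On the 3 arrays of day 21 it was 5.66, 6.08 and 5.70, so the 3 days did not overlap. The change from day 4 to day 7 was -0.63 ± 0.13 (SE; 95% interval -0.92 to -0.34), and that from day 7 to day 21 was -4.20 ± 0.13 (-4.49 to -3.91). Of the whole fall on the log2 scale as measured, 13.1% came before day 7. Since the mean at day 21, 5.81 ± 0.24 (SD, n = 3), lay below background, the size of the fall is a bound: the signal was at least 15.2-fold lower at day 21 than at day 7, taking on each array the higher of its own signal and the background percentile.

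Prtg fell in the same interval but did not reach background. Its signals were 11.75, 12.02 and 11.80 at day 4, 11.37, 11.70 and 11.44 at day 7, and 7.75, 8.02 and 7.67 at day 21. The arrays of day 7 lay just below those of day 4, separated by 0.050 between the nearest arrays, and far above those of day 21. The change was -0.36 ± 0.13 (95% interval -0.65 to -0.06) in the earlier interval and -3.69 ± 0.13 (-3.98 to -3.40) in the later one, so 8.79% of the fall came before day 7. At day 21 the mean of 7.81 ± 0.18 was still 1.63 above background, and the 12.9-fold difference from day 7 is measured on both sides. The word "lost" therefore does not describe Prtg, which stayed detected at a lower level.

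Dgkk rose before it fell. Its signals were 9.87, 9.90 and 9.88 at day 4, with an SD of 0.018, and 10.53, 10.75 and 10.44 at day 7. At day 21 they were 6.68, 6.75 and 5.78, so that replicate 3 of day 21 lay below the background of 6.18 and the other arrays of that day lay above it. The rise to day 7 was 0.69 ± 0.22 (95% interval 0.20 to 1.18) and the later change was -4.17 ± 0.22 (-4.66 to -3.68), a 18.0-fold difference. Without replicate 3 of day 21 the later change was -3.85. Dgkk is the only one of the 6 whose day 7 arrays all lay above its day 4 arrays.

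Fndc3c1 fell in both intervals. Its signals were 9.91, 9.94 and 9.69 at day 4, 8.45, 9.06 and 8.78 at day 7, and 5.52, 5.61 and 5.91 at day 21, with no overlap between days. The change was -1.09 ± 0.16 (95% interval -1.45 to -0.73) before day 7 and -3.08 ± 0.16 (-3.44 to -2.72) after it, and 26.1% of the fall came before day 7. The day 21 mean of 5.68 ± 0.20 lay below background, so the signal was at least 6.65-fold lower than at day 7 and at least 14.1-fold lower than at day 4. The arrays of day 7 were spread more widely (SD 0.30) than those of the other days (0.13 and 0.20).

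Gabrb2 was detected at day 4 only. Its signals were 8.77, 8.62 and 8.70 at day 4, against 4.90, 5.01 and 5.02 at day 7 and 4.83, 4.95 and 5.50 at day 21. Days 7 and 21 overlapped and both lay below background. The change was -3.72 ± 0.16 (95% interval -4.07 to -3.37) before day 7 and 0.12 ± 0.16 (-0.23 to 0.46) after it. As a bound, the day 7 signal was at least 6.22-fold lower than that of day 4. The highest of the day 21 arrays, replicate 3, was also the array of that day with the highest background percentile (6.18, against 5.996 and 5.909).

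Pkd1l1 also fell to below background by day 7. Its signals were 9.05, 9.48 and 9.19 at day 4, 5.65, 5.86 and 5.98 at day 7, and 6.09, 6.20 and 6.001 at day 21. The arrays of day 7 and day 21 were separated by only 0.016, and both day means lay below background. The change was -3.41 ± 0.13 (95% interval -3.71 to -3.11) before day 7 and 0.27 ± 0.13 (-0.03 to 0.57) after it. The day 7 signal was at least 9.06-fold lower than that of day 4. The day 21 mean was 0.084 under the background of 6.18, and replicate 2 of that day lay above it.

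**Figure D2:**
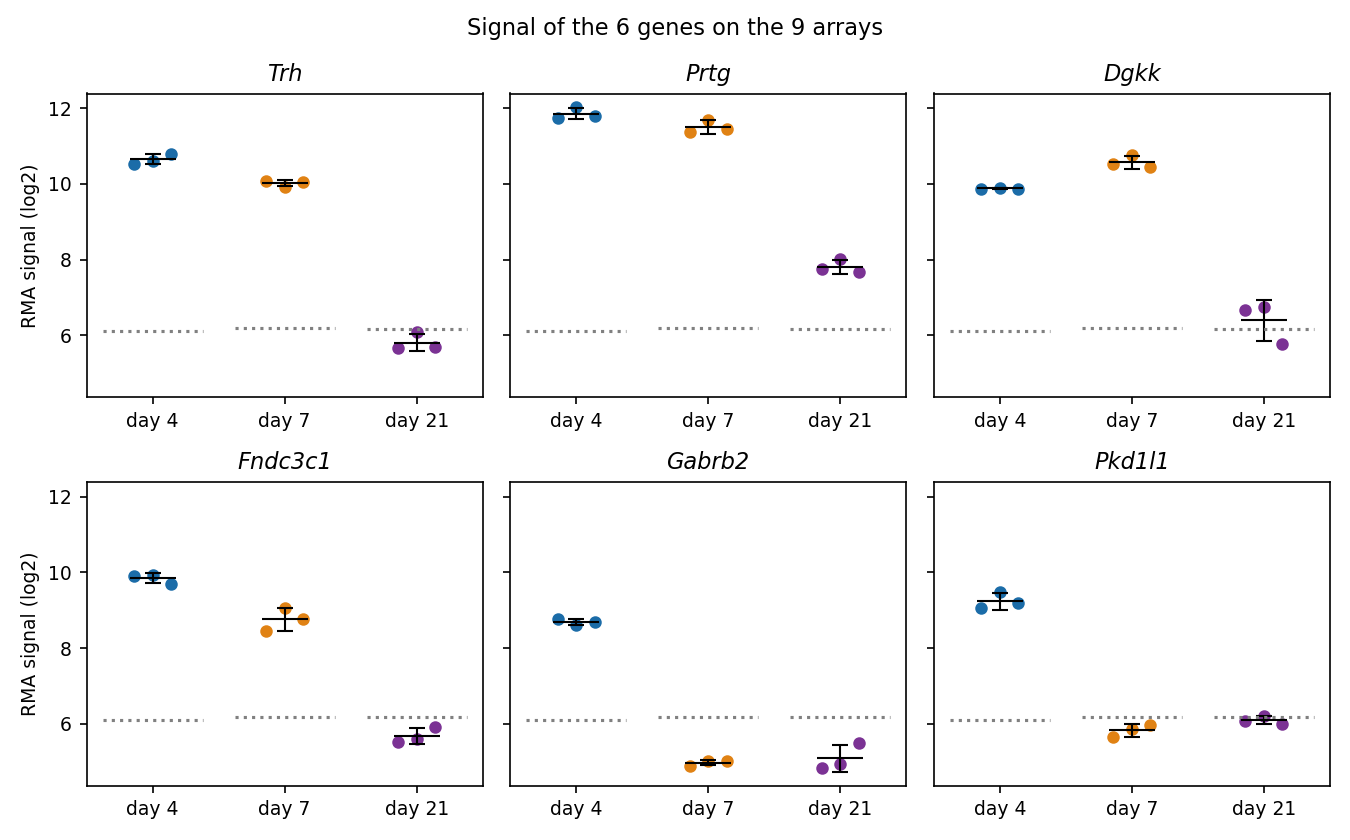
RMA signal (log2) of each gene on the 9 arrays, by day. Points are arrays in the order of their replicate number, and black bars are the mean and SD of 3 arrays. Dotted lines are the background of the day (6.11, 6.19 and 6.18). Trh, Prtg, Dgkk and Fndc3c1 stay high at day 7. The means of Gabrb2 and Pkd1l1 are below the dotted line at day 7 and day 21. Replicate 2 of Pkd1l1 at day 21 lies just above the line, at 6.20.

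The 6 genes thus fell in different intervals. From day 4 to day 7, the groups of 3 arrays did not overlap for all 6 members, with 5 lower and 1, Dgkk, higher at day 7; of all genes, 15.9% were lower without overlap. From day 7 to day 21, 4 members were lower without overlap, against 18.4% of all genes. Pkd1l1 was higher by a gap of 0.016 between the nearest arrays, with both means below background. The share of all genes that were higher without overlap was not counted in either interval. From day 4 to day 21 all 6 were lower without overlap, against 21.0% of all genes. These counts describe genes picked for such changes, in comparisons in which limma called 13.4%, 23.0% and 29.1% of all genes in either direction, and nothing is read from them. In the later interval the 95% intervals of Trh, Prtg, Dgkk and Fndc3c1 had upper bounds of -2.72 or lower, and those of Gabrb2 and Pkd1l1 included 0. The number of members above background was 6 at day 4, 4 at day 7 and 2 at day 21 (Prtg and Dgkk). With the 90th percentile of the olfactory receptor genes as background, 5 were above it at day 7 and 5 at day 21, each time all but Gabrb2. The place of Pkd1l1 below background on these days thus depends on the percentile taken. With the 99th percentile 1 was above it at day 21, Prtg.

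**Figure D3:**
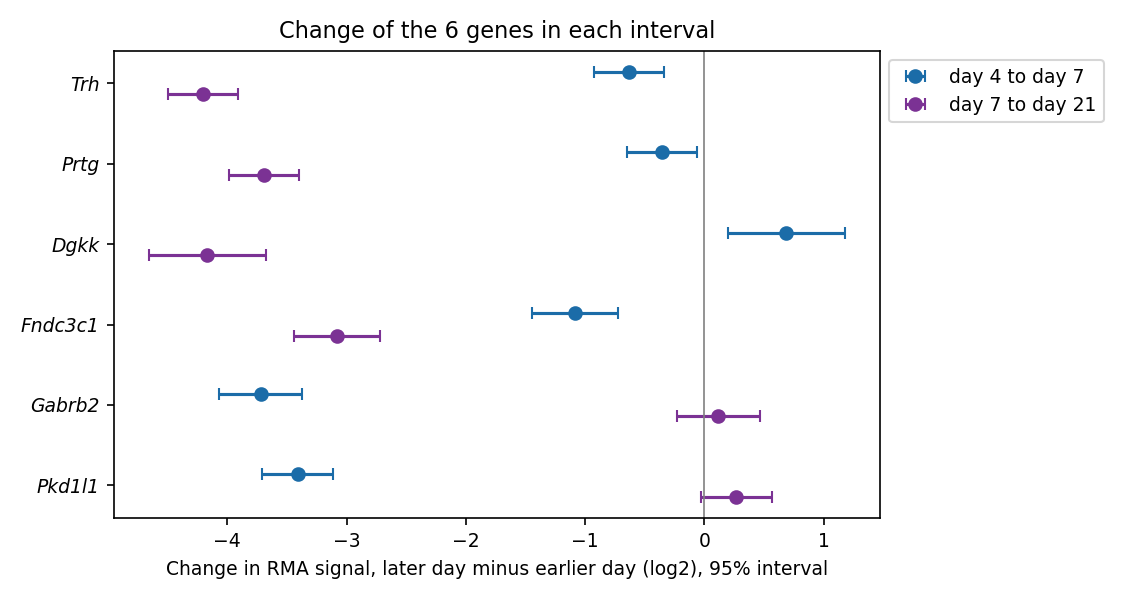
Change in RMA signal (log2, later day minus earlier day) of each gene from day 4 to day 7 (blue) and from day 7 to day 21 (purple); bars are 95% intervals of the linear model. The purple points of Trh, Prtg, Dgkk and Fndc3c1 lie between -4.20 and -3.08, and the blue points of Gabrb2 and Pkd1l1 at -3.72 and -3.41.

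Markers of other cell states moved over the same intervals, where genes said to rise or fall had a limma p adjusted over all genes under 0.05. In bulk samples such as these, fewer cells of a type and less RNA per cell cannot be told apart. Of 7 primitive streak markers, 5 fell and 0 rose from day 4 to day 7, and the log2 of their summed signal went from 11.78 to 11.96 at day 4 to 9.60 to 9.75 at day 7 and 8.33 to 8.51 at day 21. Mixl1 and Fgf8 fell to below background at day 7, Mesp1 was below it on every day, and all 7 were below it at day 21. Of 8 mesoderm and cardiac markers, 3 fell and 1 rose in this interval, with Aplnr at -3.93, and their summed signal went from 11.70 to 11.99 to 10.50 to 10.63. Aplnr, at 11.24 the brightest of them at day 4, makes up most of that sum. The median change of the list was 0.0054, against -0.0054 for all genes, and Tnnt2 rose by 1.26. Of 8 mesenchyme markers 2 fell, Twist1 (-1.77) and Pdgfra (-1.30), and 0 rose. All 10 visceral endoderm markers rose in the same interval, by a median of 3.45, and their summed signal went from 11.25 to 11.41 at day 4 to 14.67 to 14.70 at day 7. Of 8 hepatic markers 3 rose and 0 fell, and of 8 neural markers 1 rose and 1 fell. All 8 definitive endoderm markers were above background at day 4, and 3 of them rose and 2 fell to day 7. Of 10 epiblast and pluripotency markers 2 rose, Sox2 (1.35) and Dnmt3b (0.70), and 3 fell. Nanog and Fgf5 changed by -1.04 and -1.55, and Dppa4 fell to below background, by at least 2.18-fold. These values accompany the falls of Gabrb2 and Pkd1l1, and their part in them was not tested.

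Of 10 epiblast and pluripotency markers, 6 fell and 0 rose from day 7 to day 21, with Dnmt3b at -4.09 ± 0.13 (SE), Otx2 at -2.02 on the log2 scale and Fgf5 at least 2.07-fold lower. Their summed signal was 11.49 to 11.67 at day 4, 11.65 to 11.72 at day 7 and 9.95 to 10.15 at day 21. Dnmt3b, the brightest of the 10 at day 4 (10.01) and day 7 (10.71), weighs most in this sum on those days, which therefore hides the earlier falls of Nanog, Fgf5 and Dppa4. Nanog, Fgf5, Utf1, Dppa4 and Esrrb were below background at day 21, whereas Pou5f1, Sox2, Dnmt3b, Otx2 and L1td1 were above it. Of 8 mesenchyme markers, all 8 rose in this interval, from a summed 9.53 to 9.89 at day 7 to 12.77 to 13.82 at day 21. Of 8 mesoderm and cardiac markers 4 fell and 0 rose, and of 8 neural markers 3 fell and 0 rose. Of the 10 visceral endoderm markers 9 fell from day 7 to day 21, with Spink1 at -3.15 and Cubn at -2.17, and Afp rose; their summed signal was 13.75 to 13.94 at day 21. Of 8 definitive endoderm markers 1 rose and 1 fell. Of 8 hepatic markers 6 rose and 0 fell. Alb, the albumin gene, was at least 43.4-fold higher at day 21 than at day 7, and Vtn, the vitronectin gene, changed by 4.07. The summed hepatic signal was 8.29 to 8.40 at day 4, 9.66 to 9.73 at day 7 and 12.79 to 13.13 at day 21, when Serpina1a and Tat were still below background. The part of these cell states in the later falls of Trh, Prtg, Dgkk and Fndc3c1 was not tested.

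**Figure D4:**
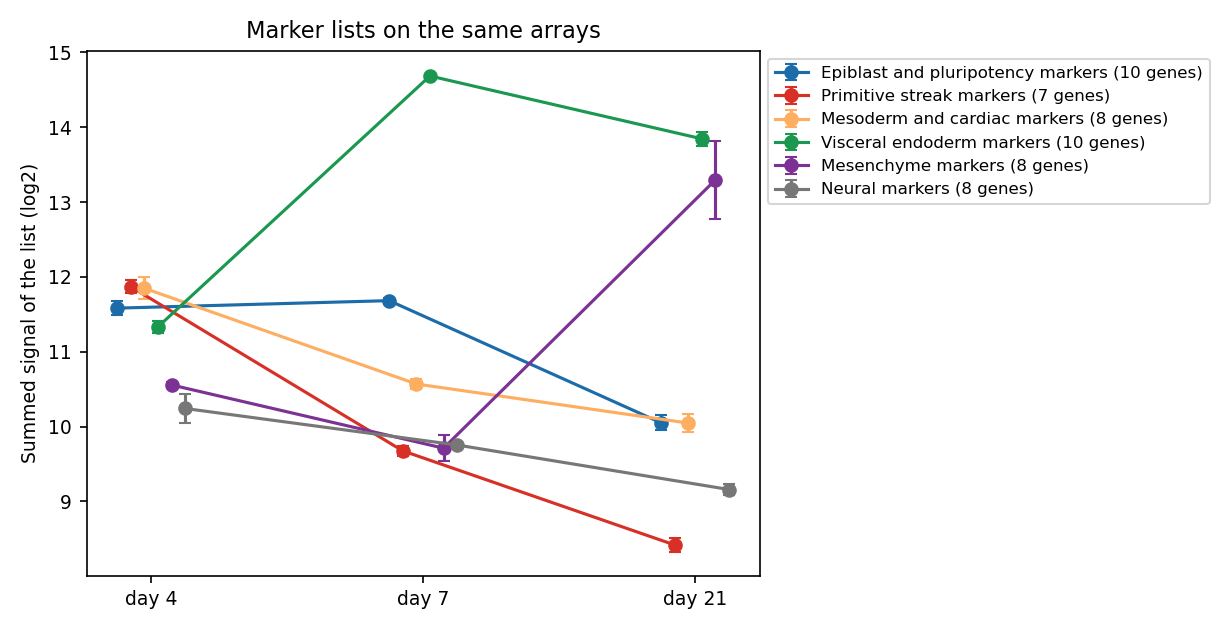
Log2 of the summed linear signal of 6 marker lists by day. Points are the midpoints and bars run from the lowest to the highest of 3 arrays. The sum of the primitive streak markers drops from day 4 to day 7, and that of the mesenchyme markers is highest at day 21. The sum of the epiblast and pluripotency markers, in which Dnmt3b is the brightest gene at day 4 and day 7, drops from day 7 to day 21.

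Genes whose profile over the 9 arrays lay closest to a member were found by the root mean square distance between log2 profiles, each centred on its own mean. The arrays fall into 3 days, so a small distance says mainly that the day means run alike. Dgkk had the DNA methyltransferase gene Dnmt3b as its nearest gene, at a distance of 0.21. Dnmt3b also rose to day 7, from 10.01 ± 0.011 to 10.71 ± 0.042, and was at 6.62 ± 0.27 at day 21. The RNA-binding protein gene Lin28a was also among its nearest 3, at 0.49, with Prtg between them.

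Trh and Prtg were each other's nearest gene, at 0.36. The nearest 3 of Trh were Prtg, Fndc3c1 and Dgkk, all members themselves. The members were chosen for large falls and this distance depends on the size of a change. That members lie close to each other therefore follows in part from the choice. Zscan10, which encodes a zinc finger factor of pluripotent cells, was among the nearest 3 of Prtg (0.43) and of Fndc3c1 (0.40), with means of 8.80, 8.14 and 5.44 on the 3 days. F5, coagulation factor V, was the other gene near Fndc3c1 (0.53). For Gabrb2 the nearest were Pkd1l1 (0.32), Samd3 (0.42) and the interferon-inducible GTPase gene Gbp4 (0.43). For Pkd1l1 they were Gbp4 (0.23), the metalloprotease gene Tll1 (0.28) and Dact1 (0.30), a modulator of Wnt signalling. Dact1 stayed above background, at 9.86, 7.02 and 7.24 on the 3 days, and fell by 2.83 on the log2 scale to day 7, measured on both sides.

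The relatives and partners of the 6 genes did not show one common course. Of 133 genes listed by pathway, 114 were measured, and each was tested with limma, adjusted by Benjamini-Hochberg over all 22180 genes, with a call at an adjusted p under 0.05. Where a gene was below background on 1 of the 2 days compared, its change is given as a bound by the rule used for Trh. For comparison, 13.4% of all genes were called from day 4 to day 7 (6.98% rose and 6.47% fell), 23.0% from day 7 to day 21 (12.4% rose and 10.7% fell) and 29.1% from day 4 to day 21 (15.0% rose and 14.1% fell). The balance depends on the scaling: 46.3% of the calls between days 7 and 21 were falls, or 62.4% with each array shifted to the same median, and 48.4% or 63.2% between days 4 and 21. That scaling moves the median change of all genes by -0.10 and -0.11 in these comparisons.

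**Figure D5:**
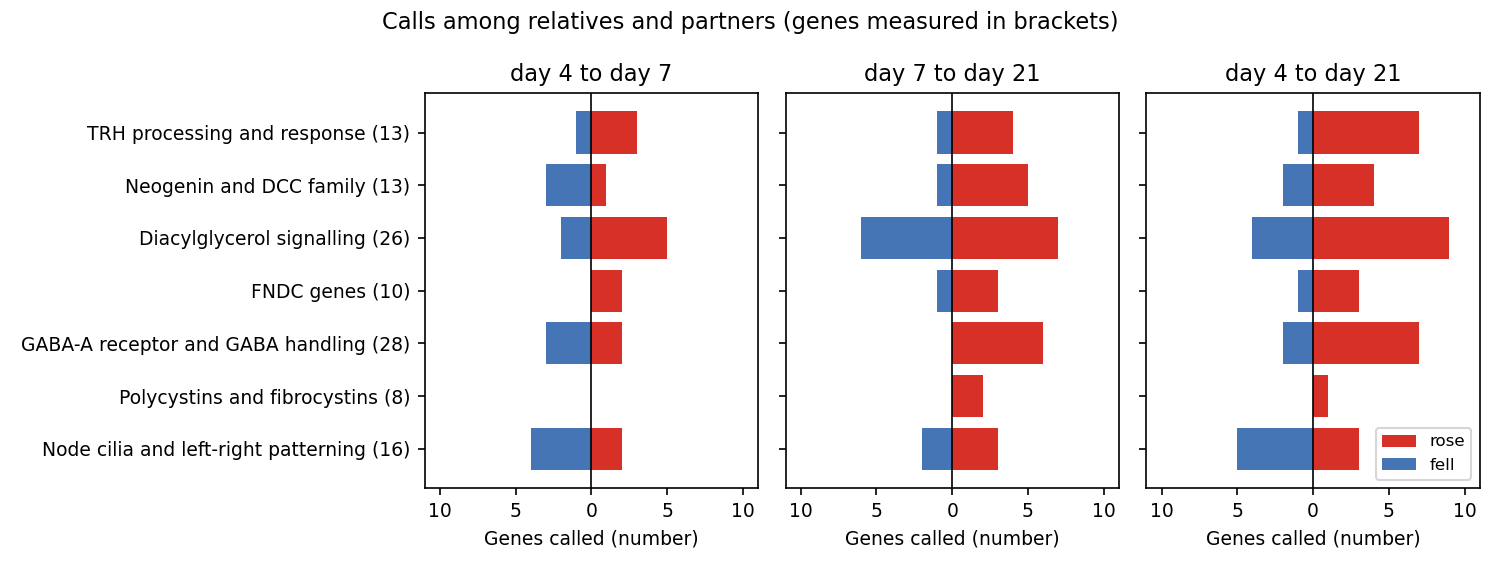
Number of genes called as risen (red, to the right) and fallen (blue, to the left) in each list of relatives and partners, for the 3 comparisons; the number of genes measured stands in brackets. No polycystin relative was called from day 4 to day 7, and no gene of the GABA list fell from day 7 to day 21.

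Of 13 genes that process TRH or respond to it, 3 rose and 1 fell from day 4 to day 7, and 4 rose and 1 fell from day 7 to day 21. The median change of the list was 0.0066 and 0.40 on the log2 scale, against -0.0054 and -0.035 for all genes. Pcsk1, a prohormone convertase that cuts the TRH precursor, fell from 7.24 at day 4 to 5.78 at day 7, below background, and was at least 2.27-fold lower (limma adjusted p = 1.20e-04). It was also called lower from day 7 to day 21 (limma adjusted p = 0.0260), with both means below background and so no size given. This later call was lost on leaving out replicate 2 or 3 of day 7 or replicate 1 or 2 of day 21, with limma adjusted p from 0.0608 to 0.0956, and in a fit of the 6 arrays of days 7 and 21 alone (0.0505). Furin, a protease of the same family, rose by 0.98 ± 0.11 and Pam, which amidates peptide hormones, by 0.63 ± 0.11 to day 7. From day 7 to day 21 Cpe, a carboxypeptidase that trims peptide hormones, rose by 1.42 ± 0.21 and Pgpep1, a peptidase that removes the N-terminal pyroglutamate, by 0.95 ± 0.16. The receptor genes Trhr and Trhr2 and Trhde, which encodes a TRH-degrading enzyme, were below background on all 3 days.

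Of 13 receptors and ligands related to protogenin, 1 rose and 3 fell from day 4 to day 7, and 5 rose and 1 fell from day 7 to day 21. Median changes were -0.15 and 0.18. Igdcc4, of the same receptor family as Prtg, rose by 0.90 ± 0.11 after day 7 (limma adjusted p = 1.40e-04), from 7.75 ± 0.09 to 8.65 ± 0.10, in the interval in which Prtg was 12.9-fold lower. Ntn1, the guidance ligand netrin-1, changed by -1.13 ± 0.15 to day 7 and by 1.04 ± 0.15 from there to day 21. Unc5b, a netrin receptor, fell by 1.45 on the log2 scale after day 7, and Ntn4, another netrin, rose from below background, by at least 1.54-fold. Neo1, neogenin, rose by 0.42 ± 0.11 to day 7 (limma adjusted p = 0.0281). That call was lost on leaving out any array of day 4 or replicate 1 or 2 of day 7, with limma adjusted p from 0.0530 to 0.101.

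Of 26 other genes of diacylglycerol signalling, 5 rose and 2 fell from day 4 to day 7, and 7 rose and 6 fell from day 7 to day 21. Median changes were -0.0026 and -0.028. Dgka, another diacylglycerol kinase, rose by 1.45 ± 0.14 after day 7 (limma adjusted p = 3.52e-05), from 8.29 to 9.74, in the interval in which Dgkk was 18.0-fold lower. Prkca, a protein kinase C that diacylglycerol activates, rose by 1.63 ± 0.13, and Plcd1, a phospholipase C that makes diacylglycerol, by 1.58 ± 0.14. Prkch, another protein kinase C, rose by 1.85 ± 0.12 from day 4 to day 7. Dagla, a lipase that breaks diacylglycerol down, fell to below background at day 7, by at least 1.30-fold, and was at least 2.04-fold higher at day 21 than at day 7.

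Of 10 other Fndc genes, 2 rose and 0 fell from day 4 to day 7, and 3 rose and 1 fell from day 7 to day 21. Median changes were 0.069 and -0.0086. The relatives Fndc3a and Fndc3b rose by 0.68 ± 0.11 and 0.77 ± 0.12 to day 7 (limma adjusted p = 0.00154 and 0.00166). Fndc3b rose by a further 0.90 ± 0.12 to day 21, to 10.42 ± 0.08, while Fndc3c1 was at background. From day 4 to day 21 Fndc3b was 3.19-fold higher. Fnd3c2, a neighbour of Fndc3c1 that was not counted among these 10, was below background on all 3 days.

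Of 28 other genes of GABA-A receptors and GABA handling, 2 rose and 3 fell from day 4 to day 7, 6 rose and 0 fell from day 7 to day 21, and 19 of the 28 were below background at day 21. Median changes were -0.022 and -0.065. Gabrp, the pi subunit of the receptor known from epithelia outside the brain, rose in the later interval: its signal was 5.26 ± 0.06 at day 4, 5.26 ± 0.08 at day 7 and 9.36 ± 0.28 at day 21. It was at least 9.88-fold higher at day 21 than at day 7 (limma adjusted p = 2.35e-08). At day 4, when Gabrb2 was detected, 3 other receptor subunits were just above background: Gabra5 at 6.31 ± 0.12, Gabre at 6.35 ± 0.043 and Gabra3, whose arrays read 7.06, 6.35 and 6.23. Gabre stayed above background on all 3 days, and Gabrb1 was below it at day 4. Gabra5 fell to below background at day 7, by at least 1.19-fold (limma adjusted p = 0.0192). The call was lost on leaving out replicate 1 or 3 of day 4 or replicate 2 or 3 of day 7, with limma adjusted p from 0.0540 to 0.0761. Of the genes that handle GABA, Abat, the transaminase that breaks it down, fell by 0.77 on the log2 scale to day 7 and then rose by 1.13 ± 0.09. With the mean over its probe sets, the earlier change was -0.30 (limma adjusted p = 0.119).

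Of 8 other polycystin and fibrocystin genes, 0 were called by limma from day 4 to day 7. Pkd2, the gene of polycystin-2, was also listed but was not among the genes measured, so nothing is said of it. Pkd1 had a change of -0.15 ± 0.09 (limma adjusted p = 0.372) and was the only one of the 8 above background at day 4, at 7.23. Pkhd1, the gene of the cystic kidney and liver protein fibrocystin, rose from below background at day 7 to 7.67 at day 21, at least 3.05-fold (limma adjusted p = 8.43e-07). Of 16 genes of node cilia and left-right patterning, 2 rose and 4 fell from day 4 to day 7, and 3 rose and 2 fell from day 7 to day 21; median changes were -0.13 and -0.054. Dnah11, a ciliary dynein of the left-right pathway, rose by 0.71 ± 0.13 to day 7, while Rfx3, a ciliary transcription factor, fell by 0.72 on the log2 scale. Cfc1, a co-receptor of Nodal, rose by 1.47 ± 0.19 to day 7 and then fell to below background, at least 10.2-fold lower at day 21 than at day 7. Noto, a factor of the node, was below background on all 3 days.

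The neighbours of the 6 genes on their chromosomes were read from the RefSeq gene order of GRCm38.p6. Trh lies on chromosome 6, Prtg on 9, Dgkk and Fndc3c1 on X, and Gabrb2 and Pkd1l1 on 11. The nearest measured protein-coding gene on each side was taken. Of these 12 neighbours, 5 fell and 0 rose from day 4 to day 7, where 6.47% of all genes fell and 6.98% rose. From day 7 to day 21, 4 rose and 0 fell, where 12.4% of all genes rose and 10.7% fell, and from day 4 to day 21, 3 rose and 1 fell (15.0% and 14.1%). The 5 that fell were Prickle2, Pygo1, Shroom4, Hus1 and Cysltr1, the last below background on every day. Of the 4 that rose, Pygo1 and Shroom4 flank Prtg and Dgkk, which were lower at day 21 than at day 7, and Atp10b and Tns3 flank Gabrb2 and Pkd1l1, which had already fallen by day 7. The largest of the 5 falls was that of Hus1, a DNA damage checkpoint gene beside Pkd1l1, from 9.45 to 8.50, a change of -0.96 ± 0.15 (limma adjusted p = 0.00133). Pygo1, a Wnt pathway gene beside Prtg, changed by -0.80 ± 0.19 to day 7 and by 1.42 ± 0.19 after it. Atp10b, beside Gabrb2, rose after day 7 from below background, by at least 3.52-fold (limma adjusted p = 5.99e-07). On the other side of Gabrb2 lies Gabra6, another GABA-A subunit gene, which was below background on all 3 days. Fnd3c2 and Cysltr1, which flank Fndc3c1, and Ccnb3, beside Dgkk, were below it on all 3 days too. Rbsn and Prickle2, which flank Trh, changed by 0.027 ± 0.086 and 0.096 ± 0.12 from day 7 to day 21, in the interval in which Trh was at least 15.2-fold lower.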

How the data were processed

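Expression was measured on 9 Affymetrix arrays, 3 per day, from 500 pg of total RNA labelled with the WT Pico kit, per the labels' protocols. The authors deposited 1 log2 value for each probe set and array. The submitters' processing notes name RMA and Affymetrix Expression Console, and no version or build is given in the sources used here. Because RMA equalises the distribution of signals between arrays, a global shift in RNA content is mostly lost, and amplifying so little RNA can distort ratios of dim transcripts. The number of arrays limits the precision, since signals carry no read depth.

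Of 34365 probe sets, 23521 with 1 gene symbol in the platform annotation were kept, 1814 had several and 9030 had none. Of those kept, 23328 matched the RefSeq table of GRCm38.p6, which changed 0 symbols. The brightest probe set was taken for each of 22180 genes. The 3 day means were estimated in 1 linear model of the 9 arrays (limma 3.58.1, R 4.3.3), tested on simulated data, with moderated two-sided tests adjusted by Benjamini-Hochberg over the 22180 genes. The 95% intervals are those of this model.

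The members and the gene lists were chosen with earlier results of these data known. Named genes are the members, Afp, up to 4 called genes per list and comparison with the largest changes (up to 2 of the highest mean where none was called), the 3 nearest profiles per member, and the nearest measured neighbours. Values of marker genes and of uncalled relatives are given beside these and were chosen after their values were seen. Relatives by protein identity were not analysed here. The repeat in the Dgkk window was searched for after its sequence was seen. The alternatives were 2 other scalings, a filter on dim genes, the mean over probe sets, a variance trend, array weights, the 6 arrays of a comparison alone, a replicate block and each array left out.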

Additional observations from a re-analysis of the deposited data

How the results depend on the processing

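For the 6 genes, 408 of 408 recomputed values (the changes in 3 comparisons and the share of the fall before day 7, each under 17 alternatives) moved by less than the spread between replicates. Part of this tally was fixed in advance, since some alternatives cannot alter a difference of day means for a gene with 1 probe set. These are the filter, the mean over probe sets, the variance trend, the replicate block and the 6 arrays alone. Leaving out an array of the day not compared cannot alter it either. The share of the fall before day 7 ranged over all 17 alternatives from 11.7% to 14.0% for Trh, 6.91% to 11.2% for Prtg and 22.4% to 29.6% for Fndc3c1. For Dgkk it ranged from -21.7% to -17.2% (a rise), for Gabrb2 from 97.7% to 107% and for Pkd1l1 from 105% to 111%. The number of genes lower from day 7 to day 21 was 2366 and became 3760 with each array shifted to the same median, a scaling that moves the median change of all genes by -0.10; all other counts of calls stayed within 1.5 times. Leaving out each array in turn gave 2176 to 3285 calls from day 4 to day 7, 4108 to 5048 from day 7 to day 21 and 5423 to 6255 from day 4 to day 21. Replicate numbers are shared by the days. The deviations of same-numbered arrays correlated at -0.0541 to 0.263, and at 0.078 to 0.263 between days 7 and 21. Differently numbered arrays were not compared, so these values do not settle whether the numbers pair the arrays. With the replicate block the calls were 2895, 5041 and 6413, against 2983, 5106 and 6448 without it, and the block ended the call of 0 named list genes. Of 1273 recomputed values for 45 named list genes, 1226 kept their side of the threshold, 47 no longer passed (40 of them on leaving out 1 array) and 0 changed sign. With Pearson r in place of the distance, 1 of the 3 nearest genes was shared for Trh, Prtg and Dgkk, 0 for Fndc3c1 and Gabrb2, and 2 for Pkd1l1. A mean below background on some day, found for 4 of the 6 genes, limits the measured size of their falls.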
